A study of Homo sapiens with 2 samples.

Results

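The genes described here are 9 transcripts by which pancreatic duct epithelium is commonly recognised: the keratins KRT7, KRT8, KRT18 and KRT19, the transcription factors SOX9 and GATA6, the carbonic anhydrase CA2, the chloride channel CFTR and the adhesion molecule EPCAM. Every probe set that the array's annotation assigns to exactly 1 of these symbols was taken, which gave 14 probe sets for the 9 genes, out of 19071 probe sets with 1 symbol on the array. They were followed in H6c7, a human pancreatic duct epithelial line made immortal with papillomavirus genes, and in H6c7 cells that had received a K-ras oncogene. Total RNA of each line was hybridised to 1 Affymetrix U133A array, so the parental group and the K-ras group hold 1 array each. The labels name no vector control and give neither the oncogene's mutation nor whether the K-ras cells were a clone or a mixed population. Differences between the arrays could not be tested, and every value below describes these 2 arrays.

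Keratins form the intermediate filaments of epithelial cells, and each filament is built from pairs of a type I and a type II chain. Duct cells and other simple epithelia use the type II chains KRT7 and KRT8 with the type I chains KRT18 and KRT19, whereas stratified epithelia pair KRT5 with KRT14. SOX9 maintains the duct and progenitor programme of the pancreas, and GATA6 is a zinc finger factor of pancreatic development that is also associated with the more epithelial, classical form of pancreatic carcinoma. CFTR and CA2 serve the bicarbonate-rich secretion of duct cells.

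Each probe set carries 1 signal per array on a linear scale. A signal of 46.9, the higher of the medians of the 2 arrays over probe sets other than controls, served as the floor, and a probe set at or above it was called detected on that array. A probe set detected on neither array was called not measured. Where only 1 array lay below the floor, the ratio was taken against the floor and is a bound. A difference was counted when it reached 2-fold. The 3′ to 5′ signal ratio of GAPDH was 0.817 on the parental and 0.888 on the K-ras array, and that of ACTB was 1.28 and 1.10, so RNA integrity by this measure was close on the arrays. The log2 ratios of probe sets of the same gene had a pooled standard deviation of 0.46 over 1671 genes, which is the only repeat measurement in these data and is technical.

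Of the 14 probe sets, 10 were measured, 8 of them detected on both arrays. At least 2-fold lower in K-ras cells were 4 of the 10, belonging to CA2, KRT19, EPCAM and SOX9, and none was at least 2-fold higher. Over all 11084 measured probe sets with 1 symbol, 14.7% were at least 2-fold lower and 10.1% at least 2-fold higher. With no floor these shares were 15.9% and 21.2% of 19065. The CA2 probe set was measured through its parental signal alone. Without it, and without the KRT7 probe set in the same position, 3 of the 8 detected on both arrays were lower, against 13.4% of all such probe sets. The median log2 ratio of the 10 measured probe sets was -0.19, and that of all measured probe sets was 0.07. These shares describe the set and carry no test.

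**Figure D1:**
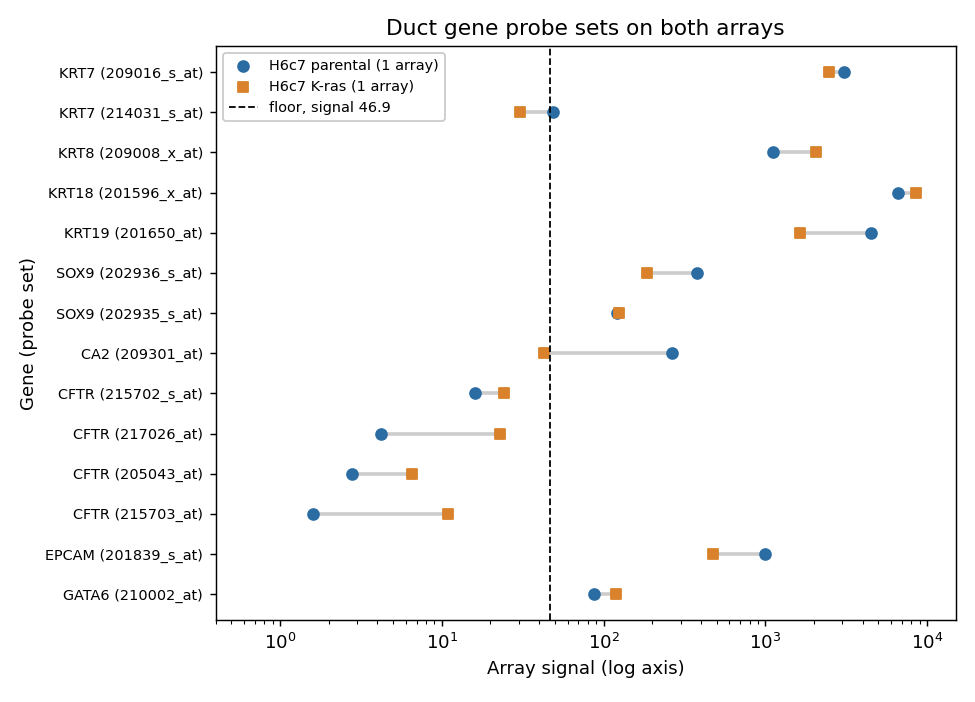
Signal of each of the 14 duct gene probe sets on the parental array (blue circles) and the K-ras array (orange squares), on a log axis, with 1 array per line and the floor of 46.9 dashed. KRT19, CA2, EPCAM and the brighter SOX9 probe set lie to the left on the K-ras array, KRT8 and KRT18 lie to the right, and all 4 CFTR probe sets stay under the floor.

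The 4 duct keratins did not share a direction. KRT19, the smallest keratin and a standard immunohistochemical marker of pancreatic ducts, had a signal of 4511 in parental and 1644 in K-ras cells. It was thus 2.74-fold lower in the K-ras cells, with 36.5% of the parental signal left and a log2 ratio of -1.46. Of all measured probe sets, 7.47% had a lower ratio than KRT19. In bulk RNA, fewer cells with a transcript and less transcript per cell cannot be told apart.

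Large ratios were less common among probe sets as bright as the keratins, at least on the lower side. Of 755 probe sets with a geometric mean signal of at least 1000, 6.36% were at least 2-fold lower and 10.6% at least 2-fold higher in K-ras cells, and their log2 ratios ran from -1.08 at the 5th percentile to 1.39 at the 95th. KRT19 lay below that range. KRT7, KRT8 and KRT18 lay inside it.

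KRT18, the other type I chain of the set, had a signal of 6622 in the parental cells and 8606 in the K-ras cells, a log2 ratio of 0.38. This ratio is smaller than 1 standard deviation between probe sets of a gene, and ran from 0.12 to 0.47 under the other scalings and floors. The type II partner of KRT18, KRT8, had signals of 1111 and 2044. That is a 1.84-fold higher value in the K-ras cells, a log2 ratio of 0.88 that stayed short of the 2-fold threshold under each of 10 other scalings and floors, where it ran from 0.78 to 0.97. KRT8 and KRT18 were each measured by 1 probe set of the _x_at design, which can also pick up related transcripts. RefSeq's GRCh38.p14 names 52 pseudogenes after KRT8 and 68 after KRT18, against 5 after KRT19 and 0 after KRT7, and the part of such copies in these signals was not tested.

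KRT7, the type II keratin that separates duct-type from many other glandular epithelia, had a signal of 3075 in the parental and 2466 in the K-ras cells. The log2 ratio of -0.32 is smaller than 1 standard deviation between probe sets of a gene. A second KRT7 probe set was at the edge of detection, with 48.9 in parental cells and 30.5, under the floor, in K-ras cells. It adds no ratio beyond a bound of 1.04-fold.

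The chains were then compared with each other by their log2 ratios. The log2 ratio of KRT18 exceeded that of KRT19 by 1.83, and that of KRT8 exceeded that of KRT19 by 2.34, while KRT8 and KRT18 differed by 0.50. For comparison, the difference between 2 probe sets of 1 gene on these arrays had a standard deviation of 0.65. That value holds no variation between repeat arrays or cultures. In these arrays KRT8 was on the higher side and KRT19 on the lower side. KRT18 and KRT7 lay between them, each with a ratio within 1 standard deviation between probe sets of a gene. KRT7 was 1.14 above KRT19.

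**Figure D2:**
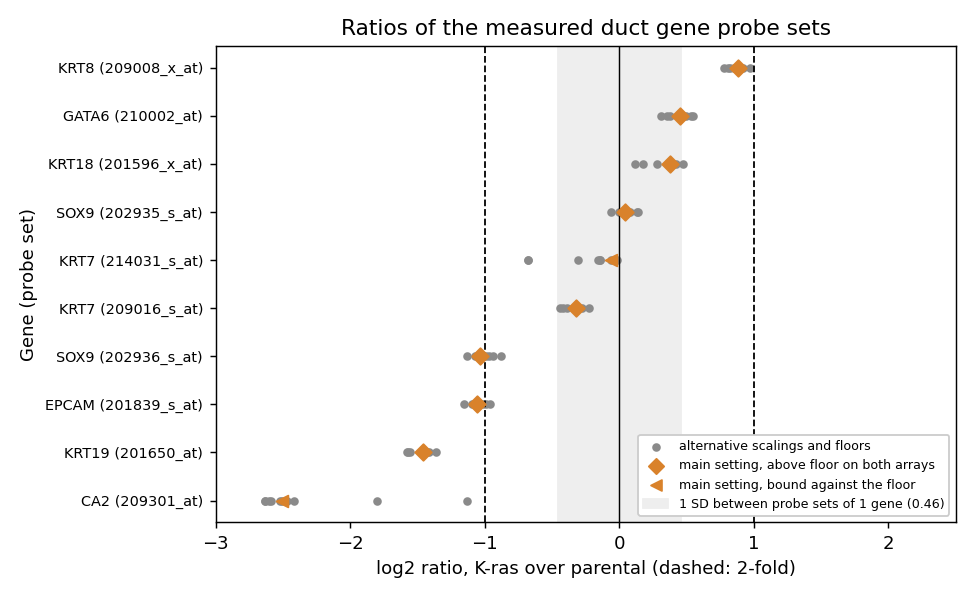
Log2 ratio of K-ras over parental signal for the 10 measured duct gene probe sets (orange; diamonds detected on both arrays, triangles bounds) with the values under 10 other scalings and floors (grey points), the 2-fold thresholds dashed and 1 standard deviation between probe sets of a gene (0.46) shaded. KRT19 and CA2 stay past 2-fold lower throughout, whereas EPCAM and the brighter SOX9 probe set straddle the threshold and KRT8 stays just inside it. The dimmer SOX9 probe set runs from -0.06 to 0.14.

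Among the transcription factors, the SOX9 result depended on the probe set. The brighter one, whose annotation carries a SOX9 reference transcript, had a signal of 378 in the parental and 185 in the K-ras cells, which is 2.05-fold lower (log2 ratio -1.03). The dimmer one had 122 and 125, a log2 ratio of 0.04. Their distance of 1.07 was matched or exceeded by 109 of 1190 genes (9.16%) that have exactly 2 probe sets detected on both arrays, where the median distance was 0.38. The brighter probe set fell short of 2-fold under quantile normalization (-0.97), under both scalings on the maintenance probe sets, which the array carries for normalization (-0.99 and -0.94), and with the floor added to both signals as a pseudocount (-0.88). A direction for SOX9 cannot be given from these 2 arrays.

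GATA6 was dim but detected on both arrays, with a signal of 87.3 in the parental and 119 in the K-ras cells. Its log2 ratio of 0.45 lies within 1 standard deviation between probe sets of a gene, and 70.4% of measured probe sets had a lower ratio. It has a single probe set here. Neither factor therefore showed a difference that both passed 2-fold and held across its probe sets and settings.

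The secretory genes were under the floor in both lines (CFTR) or in the K-ras cells alone (CA2). CA2, the cytosolic carbonic anhydrase that supplies bicarbonate in duct cells, had a signal of 267 in parental cells and 43.0, just under the floor, in K-ras cells. It was at least 5.69-fold lower in K-ras cells. CA2 passed 2-fold under each of the 10 other scalings and floors, and the smallest bound there was a log2 ratio of -1.13, with the floor at the 70th percentile.

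CFTR, the apical chloride and bicarbonate channel of duct cells, was not measured in either line. Its 4 probe sets had signals of 1.60 to 16.0 in parental and 6.50 to 24.4 in K-ras cells, all under the floor. No ratio is given, since values under the floor have no order.

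EPCAM, a homotypic adhesion molecule of epithelial cells whose cleaved tail can act in the nucleus, had a signal of 994 in the parental and 477 in the K-ras cells. It was 2.08-fold lower (log2 ratio -1.06) on its only probe set, an _s_at design, the name given to sets that match several transcripts. Among the 3121 probe sets with a geometric mean signal of 200 to 1000, to which EPCAM and the brighter SOX9 probe set belong, 16.3% were at least 2-fold lower. The value was under 2-fold with the floor as a pseudocount (-0.99) and when arrays were scaled on the median log2 ratio of maintenance probe sets (-0.96).

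**Figure D3:**
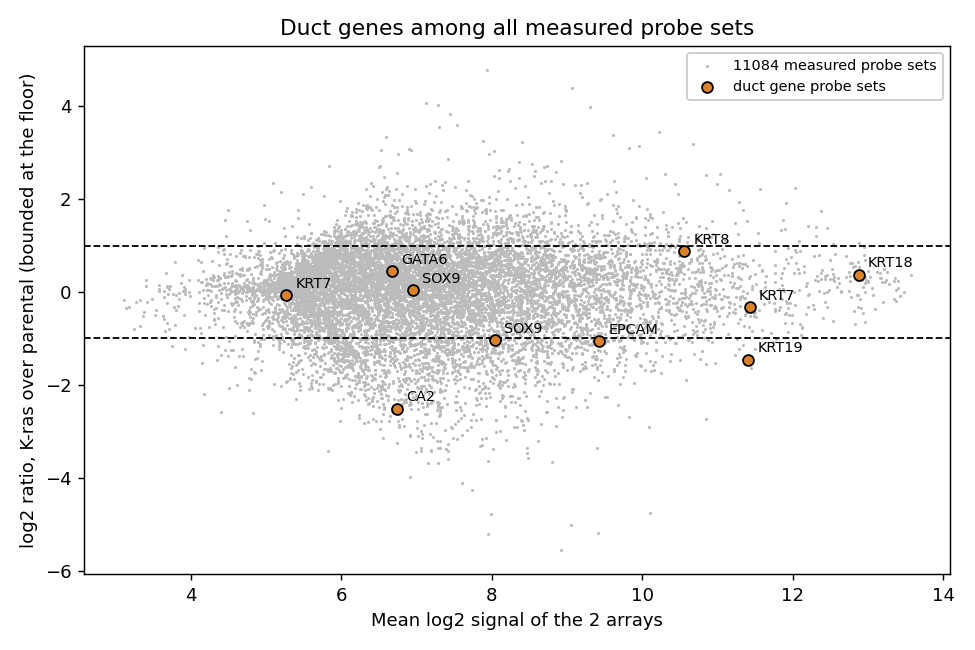
Log2 ratio of K-ras over parental signal, bounded at the floor, against the mean log2 signal for 11084 measured probe sets (grey) and the 10 measured duct gene probe sets (orange, named), with 2-fold dashed. KRT19 lies at the lower edge of the bright probe sets, CA2 low among the dim ones, and EPCAM and the brighter SOX9 probe set close to the 2-fold line.

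The duct keratins were next set in the whole keratin family. RefSeq's GRCh38.p14 lists 55 coding keratin genes in clusters on chromosomes 12 and 17, of which 32 had a named probe set and 16 were measured. In the main setting KRT19 was the only measured keratin past the threshold on the lower side, and KRT15 joined it under median centring (-1.01) and loess (-1.03), and KRT20, under the floor on both arrays, with no floor. KRT16, a keratin of activated squamous epithelium, was the only one past it on the higher side, with 45.4 in parental and 674 in K-ras cells (at least 14.4-fold), except that dim keratins joined it with a lower floor or none. The background over all 7693 measured genes was 14.4% at least 2-fold lower and 9.97% at least 2-fold higher. The median log2 ratio was 0.38 over the 16 measured keratins and also over the 9 detected on both arrays.

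The stratified pair KRT5 and KRT14 was well above the floor in both lines. KRT5 had signals of 5960 and 9397 (log2 ratio 0.66), and KRT14 had 6237 and 10134 (0.70), so each was higher in the K-ras cells by less than 2-fold. Under the other scalings and floors KRT5 ran from 0.43 to 0.75 and KRT14 from 0.44 to 0.79. The lowest values, under quantile normalization, were smaller than 1 standard deviation between probe sets of a gene. KRT10, a suprabasal keratin, had a log2 ratio of 0.86 on an _x_at probe set, with other probe sets at 0.16 and 0.79. KRT75 had 69.1 and 74.4, a log2 ratio of 0.11.

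In the chromosome 17 cluster KRT19 lies between KRT15 and KRT9 in the order of keratin genes. The basal keratin KRT15 had 96.4 in the parental and 51.3 in the K-ras cells, a log2 ratio of -0.91. Its K-ras signal lay close to the floor. Where KRT15 was measured, its ratio ran from -1.03 under loess to -0.55 with the floor as a pseudocount. KRT9 had 65.4 and 37.4, the latter under the floor, which gives a bound of -0.48. KRT14 and KRT16 follow next along the chromosome and had ratios above 0. KRT15, KRT19 and KRT9 were thus the measured keratins of chromosome 17 with ratios below 0. With other settings KRT37, KRT13 or KRT20, all under the floor here, were below 0 too, and with the floor at the 70th percentile KRT15 and KRT9 were not measured. KRT8 and KRT18 are neighbours at the other end of the chromosome 12 cluster from KRT7. The remaining measured keratins (KRT2, KRT23, KRT24, KRT31 and KRT38) were above the floor on the K-ras array alone and had bounds of 0.02 to 0.68.

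**Figure D4:**
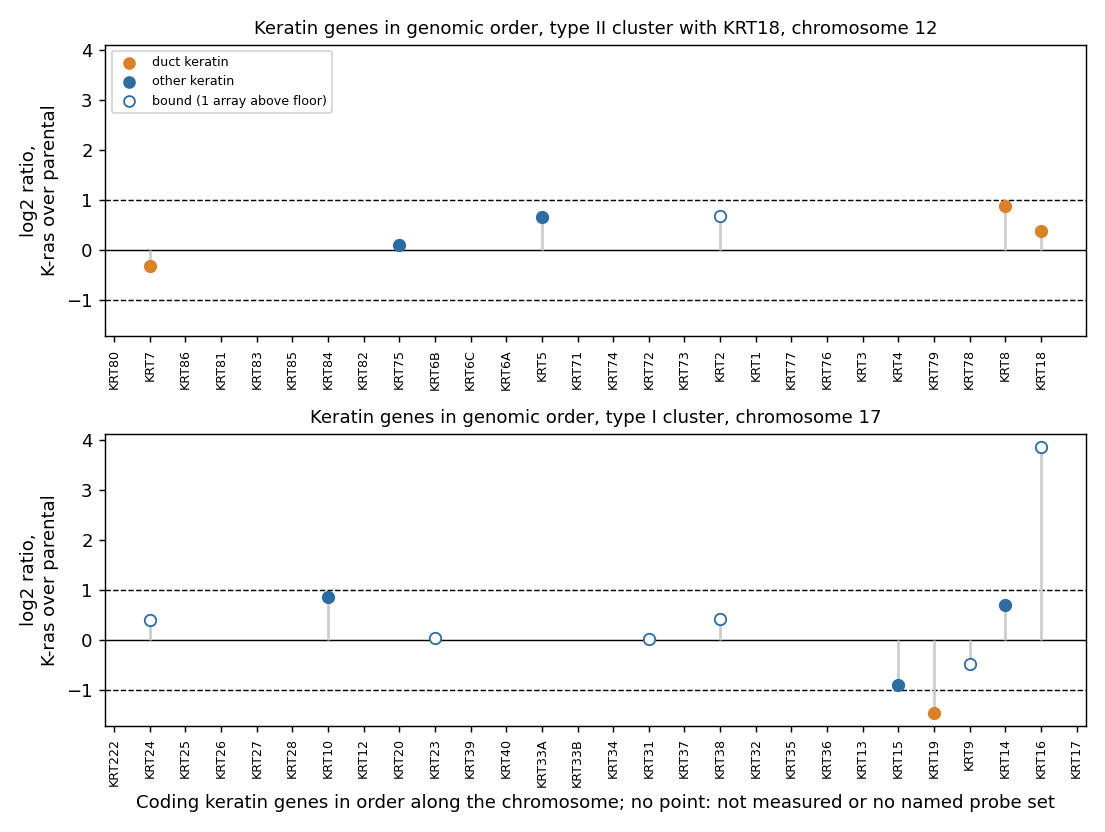
Log2 ratio of K-ras over parental signal for the 16 measured keratin genes in their order along chromosome 12 (top) and chromosome 17 (bottom), with duct keratins in orange, other keratins in blue, open circles for bounds and 2-fold dashed. KRT19 (-1.46) is lowest, beside KRT15 (-0.91, K-ras signal close to the floor) and KRT9 (a bound of -0.48), and KRT16 (at least 3.84) is highest.

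The wider duct programme was checked with lists of other genes. Of 26 duct and pancreatic transcription factors, 18 had a named probe set and 8 were measured. At least 2-fold higher were 3 and lower 1, against 9.97% higher and 14.4% lower over all measured genes. Of the 3, FOXA2 was measured through its K-ras signal alone. Higher were FOXA2, a forkhead factor of foregut epithelium, with 42.4 and 224 (at least 4.78-fold, second probe set also a bound, log2 ratio 2.12), KLF5 with 207 and 908 (4.38-fold, second probe set 1.06) and KLF4 with 101 and 433 (4.27-fold, second probe set 1.16). EHF, an ETS factor of epithelial cells, was lower, with 181 and 54.7 (3.30-fold). ONECUT1, PDX1 and NR5A2 were among 10 factors under the floor in both lines, and HES1, a Notch target, had log2 ratios of 0.26 and -0.12 on its probe sets.

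Of 33 genes of duct secretion, 20 were measured. At least 2-fold lower were 4 of them, 2 of these as bounds, and higher none, against 14.4% lower and 9.97% higher over all measured genes. The median log2 ratio was -0.18. ATP1B1, the sodium pump's beta subunit, had signals of 863 and 259 (3.33-fold lower, second probe set -0.98). The nucleotide receptor P2RY2 had 104 and 11.1 (at least 2.22-fold lower). The catalytic subunit PRKACB of protein kinase A was at least 4.69-fold lower, but its other probe set gave -0.17. The membrane carbonic anhydrase CA12 was 2.08-fold lower on an _x_at probe set, with others at -0.82 to -0.20. The secretin receptor SCTR was under the floor in both lines, as CFTR was.

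Of 34 duct surface, mucin and secreted markers, 15 were measured, and 15 more with a named probe set, SPP1, PROM1, CLDN4 and the trefoil factors among them, were under the floor in both lines. Only the virus receptor and junction protein CXADR was at least 2-fold lower, with 207 and 68.8 (3.01-fold), and none was higher. Over all measured genes the shares were 14.4% lower and 9.97% higher. CD24 had a log2 ratio of -0.83 with other probe sets at -1.54 to -0.38. EPCAM's membrane partners differed from one another, the tetraspanin CD9 at -0.70 and the claudin CLDN7 at 0.78.

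Listed partners of the keratins and EPCAM, which include junction linkers and EPCAM-cleaving proteases, went in both directions as a group. Of 24 measured partners, 5 were at least 2-fold lower and 4 higher, against 14.4% lower and 9.97% higher over all measured genes. Their median log2 ratio was 0.20. The desmosomal linker DSP had 1511 and 507 (2.98-fold lower), and the hemidesmosomal linker DST had 561 and 52.3 (10.7-fold lower, others at -2.77 to -1.02). The EPCAM-cleaving protease ADAM10 had 723 and 81.3 (8.90-fold lower), whereas its other probe sets reached only -1.01 and -0.85, and ADAM17 had -0.27. CTNNB1 was 2.07-fold lower, and PKP2 was 2.35-fold lower on its brighter probe set but had a log2 ratio of -0.16 on the other. Higher were the linker PLEC (2.82-fold, second probe set 1.26), EPPK1 (2.39-fold, _x_at design), PKP3 (2.11-fold, second probe set 0.87) and PNN, whose _x_at probe set gave 3.20-fold higher while its other probe sets gave -2.28 and -2.15, so that PNN has no settled direction.

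**Figure D5:**
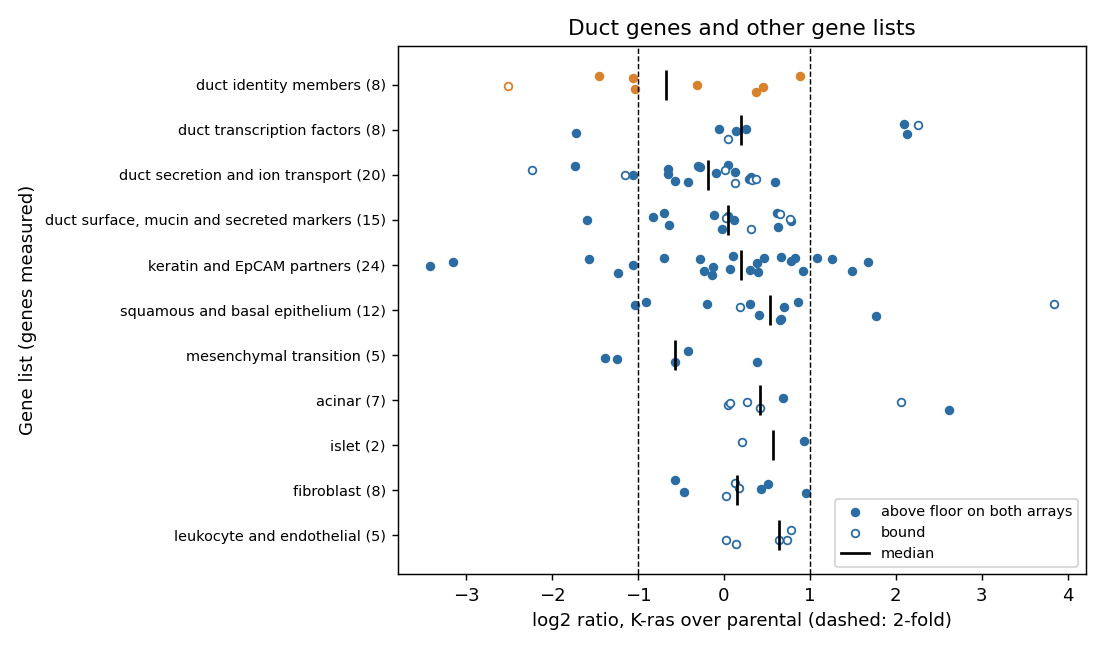
Log2 ratio of K-ras over parental signal for every measured gene of the duct set (orange) and of 10 other lists (blue), with open circles for bounds, black bars for medians, 2-fold dashed and the number of measured genes in brackets. The duct set, by the brightest probe set of each gene, has its median at -0.68 with 4 of 8 genes at least 2-fold lower. Of these, CA2 is a bound and SOX9 has no settled direction. Over the 10 measured probe sets of the duct genes the median was -0.19. The squamous and basal list has its median at 0.54.

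Genes of duct epithelium were detected in part. The keratins KRT7, KRT8, KRT18 and KRT19 and EPCAM were far above the floor, whereas CFTR was under it in both lines. Of the duct surface, mucin and secreted markers with a named probe set, 15 were measured and 15 were under the floor on both arrays. Measured ones included S100A6 (5677 in parental and 8765 in K-ras cells) and CDH1 (1515 and 1487), while SPP1 and PROM1 were under the floor. Of the secretion genes, 20 were measured and 8, SCTR among them, were not, and of the transcription factors 8 were and 10 were not. The stratified keratins KRT5 and KRT14 were far above the floor too. With 1 value per gene, the brightest probe set, 8 of the 9 duct genes were measured, 4 of them at least 2-fold lower, against 14.4% of all measured genes. Of the 4, CA2 was measured through its parental signal alone and SOX9 has no settled direction. The median log2 ratio was -0.68 against 0.10 over all measured genes. This median lies below that of the probe sets because the dimmer SOX9 and KRT7 probe sets do not enter it. In the squamous and basal list 12 of 20 genes were measured, with 2 at least 2-fold higher, KRT16 and the integrin subunit ITGB4 (3.40-fold), and 1 lower, DSC3 (2.05-fold, second probe set -0.86). The summed signal of that list was 36726 in the parental and 49842 in the K-ras cells, and its part in the lower duct genes was not tested.

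Most markers of cells that a duct culture should lack were under or near the floor. Of 13 islet genes with a named probe set 2 were measured, and of 16 leukocyte and endothelial genes 5 were, all 5 on the K-ras array alone, and neither list had a gene past 2-fold. The summed signals were 208 and 307 for the islet list and 232 and 463 for the leukocyte and endothelial list in the parental and K-ras cells, respectively. These sums include values under the floor, among them every parental value of the leukocyte and endothelial list. A difference between the lines can therefore not be read from them. INS, GCG, PTPRC, CDH5 and VWF were under the floor on both arrays. The islet gene CHGB was detected on both arrays (55.2 and 106). The 5 measured leukocyte and endothelial genes had K-ras signals of 47.8 (CD3D) to 80.6 (PECAM1). Of 16 fibroblast genes 8 were measured, none past 2-fold, with summed signals of 1425 and 1308, and PDGFRA, PDGFRB and LUM were under the floor. COL1A1 (131 in parental and 94.6 in K-ras cells), ACTA2 (95.4 and 129), DCN (59.1 and 84.3) and THY1 (51.7 and 100) were detected on both arrays. The matrix protein SPARC, which is not made by fibroblasts alone, gave most of that sum, with 952 and 640.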

How the data were processed

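RNA of the 2 lines was hybridised to 1 Affymetrix U133A array each. Per the labels, RNA was extracted with phenol and chloroform and purified on columns. The deposited table holds 1 linear intensity per probe set and array. It was made with software not given in the sources used here. Trimmed means without the lowest and highest 2% were 150.1 in both columns that the authors deposited, so the values were taken as scaled, and the K-ras column was rescaled to the parental trimmed mean. Sample groups came from the titles and source names.

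Genes were named through the platform annotation. Of 19071 probe sets with 1 symbol, 19059 matched RefSeq GRCh38.p14 by gene number; 1043 carried several symbols and 2169 none. The probe set with the highest mean log2 signal stood for a gene where 1 value was needed. In list comparisons up to 4 genes with the largest ratios were named per list, plus further genes to show what a count consists of, and all measured keratins. The members and lists were chosen with earlier results of these data known. The signal classes at 200 and 1000 were chosen after the values were seen.

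The 2 columns were also compared without rescaling and after quantile normalization, centring on the median, a loess fit (span 0.3) or scaling on 100 maintenance probe sets. The floor was also set at the 30th or 70th percentile, left out or added as a pseudocount. Further alternatives were thresholds of 3-fold and 1.5-fold, other probe set designs and the median over probe sets. Scaling on the median log2 ratio of the maintenance probe sets was added after seeing the data. The steps were tested on simulated data. The tools were matplotlib 3.10.9, statsmodels 0.14.6, pandas 2.3.3 and numpy 2.4.6 under Python 3.11.15. Precision is limited by having 1 array per line.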

Additional observations from a re-analysis of the deposited data

How the results depend on the processing

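KRT19 stayed at least 2-fold lower under each of the 10 other scalings and floors (log2 ratio -1.58 to -1.36), as did CA2. The CA2 bound was -1.13 with a 70th percentile floor and -1.80 with the floor as a pseudocount, both closer to 0 by construction. The count of lower probe sets, 4, became 2 with the floor as a pseudocount, 2 with scaling on the median log2 ratio of maintenance probe sets, 2 without _x_at and _s_at designs and 1 at 3-fold. The count of higher probe sets, 0, became 1 at 1.5-fold (KRT8) and 3 with no floor, all of them CFTR. CFTR's brightest probe set then had a log2 ratio of 0.61, and a bound of 0.29 with a 30th percentile floor. The median over its probe sets put SOX9 at -0.50. GATA6 was not measured with a 70th percentile floor. Over the comparison lists together, 14 genes were lower and 11 higher, beside 14.4% lower and 9.97% higher of all 7693 measured genes. The lower list count became 7 with a 70th percentile floor and 6 at 3-fold. The higher list count became 22 with a 30th percentile floor and 47 without one. Over all measured genes, 1109 were lower and 767 higher, with 632 lower at a 70th percentile floor. Genes higher over the whole array numbered 1363 with a 30th percentile floor and 2428 without one. No other of these member and list counts moved by over 1.5 times. Over all measured probe sets, 1626 were lower and 1124 higher. They became 2193 and 1990 with a 30th percentile floor, 854 and 601 with a 70th percentile floor, 3040 and 4041 without a floor, and 1239 and 695 with the floor as a pseudocount. Keratins at least 2-fold higher went from 1 to 4 with a 30th percentile floor and to 10 without one, and those lower from 1 to 2 without a floor, under median centring and under loess. Over probe sets detected on both arrays the median log2 ratio was 0.09, and it lay between -0.0038 and 0.17 under the other settings. No paired analysis was possible because each group holds 1 array. Signal over background limits CFTR, CA2, GATA6 and the second KRT7 probe set, and the cause of the differences between settings was not tested.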

Other observations

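Genes outside the duct set include digestive enzymes of acinar cells, the other exocrine cell type of the pancreas. Of 12 acinar genes with a named probe set, 7 were measured, 5 of them on the K-ras array alone. Among these 5, all but PRSS2 lay close to the floor, with K-ras signals of 48.3 (CPB1) to 62.7 (PNLIPRP1). Their log2 ratio bounds ran only from 0.04 to 0.42. The 2-fold threshold was passed on the higher side by 2 acinar genes, PRSS3 and PRSS2, and on the lower side by 0. The shares over all measured genes were 9.97% higher and 14.4% lower. The trypsinogen PRSS3 had a signal of 154 in the parental and 945 in the K-ras line, 6.13-fold higher, with a second probe set at a log2 ratio of 2.40. PRSS2 had 35.5 and 195, at least 4.17-fold higher, with a bound of 1.24 on its second probe set. Both rest on _x_at probe sets of near-identical paralogs and are uncertain as to which gene is meant. The lipase PNLIP and the carboxypeptidase CPA1 were under the floor in both lines.

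Of 11 mesenchymal transition genes with a named probe set, 5 were measured. At least 2-fold lower were 2 and higher none, against 14.4% lower and 9.97% higher over all measured genes. Fibronectin FN1 was 2.60-fold lower in the K-ras line on an _x_at probe set, with others at log2 ratios of -1.97 to -0.57, and the transcription factor SNAI2 had 945 and 398, 2.37-fold lower. Vimentin VIM had 590 and 772, a log2 ratio of 0.39, and S100A4 and SPARC had log2 ratios of -0.42 and -0.57. CDH2, ZEB1, SNAI1 and TWIST1 were under the floor in both lines.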
